A study of Mus musculus with 12 samples.

Results

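Polycomb repressive complex 2 (PRC2) was followed through its 9 subunit genes in mouse pre-iPSCs, which are reprogramming intermediates that have stalled short of the pluripotent state. The genes were Ezh2, Ezh1, Suz12, Eed, Jarid2, Aebp2, Mtf2, Phf19 and Phf1, chosen by name from the core and accessory subunits of the complex, and they are 9 of the 20325 genes in the tables. RNA was sequenced on day 2, after 48 h in one of 4 conditions, namely DMSO alone, ascorbic acid (AA, 50 µg/ml), the inhibitor pair 2i (a MEK inhibitor, PD-0325901, at 1 µM and a GSK inhibitor, CHIR-99021, at 3 µM), or AA and 2i together (AA+2i). Each condition had 3 libraries, lettered A, B and C, from a partially reprogrammed line in serum-containing ESC medium. The study picked pre-iPSC lines as GFP-negative colonies from Nanog-GFP fibroblasts given retroviral Oct4, Sox2, c-Myc and Klf4, and derived others from astrocytes. The labels do not say which line was sequenced, so the form in which these cells carry the reprogramming factors is not known here. The cells were maintained on irradiated feeders, and the treatments were given without them. The triplicates are described as biological, without saying how separate the cultures were, so the p-values measure the spread between these cultures.

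PRC2 places methyl groups on lysine 27 of histone H3, a mark of repressed developmental genes. Its catalytic subunit is Ezh2 or Ezh1, which works only in a core with Suz12 and Eed and the histone-binding proteins Rbbp4 and Rbbp7. Accessory proteins divide the complex into the form with a Polycomb-like protein (Mtf2, Phf19 or Phf1) and the form with Jarid2 and Aebp2, and in ESCs both forms gather at CpG islands of silent lineage genes.

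Phf19 was the 1 PRC2 gene that passed the test against DMSO. It fell in 2i and in AA+2i to 47.2% and 47.5% of its level in DMSO, whereas its value in AA was close to that in DMSO. No other subunit gene passed in any of the comparisons of this model, which fits a mean per condition and takes no account of the library letters. Suz12, Mtf2, Ezh2 and Aebp2 had lower mean levels in AA+2i than in DMSO, and Phf1 a higher one, but none of these differences passed that test. After a correction for the GC content of the transcripts both the differences and their standard errors became smaller.

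The libraries held between 16173322 and 54392719 expected counts, the deepest being DMSO B and AA B, and all 9 genes were among the 13400 tested, each with 10 or more counts in 3 or more libraries. The cell type was checked against its markers. At least 7 of 9 pre-iPSC markers were at 1 TPM (RSEM's length-normalised level) or more in every library, with Pou5f1 among them. Pou5f1, Sox2, Klf4 and Myc on this list are also the reprogramming factors given to the cells, so their detection cannot by itself identify the cell type. Fut4, on the same list, stayed at 0.12 TPM or less, and Lin28a was under 1 TPM in DMSO B and in each AA+2i library. The 11 fibroblast or feeder markers summed to between 5.4 and 21.1 TPM, 2 to 4 of them reached 1 TPM, and Lum was listed at 0 in every library. Thy1, on the same list, was not absent. It had 5.13 ± 2.31 TPM in DMSO, 12.6 ± 5.14 in AA, 1.15 ± 0.574 in 2i and 3.8 ± 1.41 in AA+2i (SD, n = 3). All 8 late pluripotency markers rose in AA+2i, and Nanog went from 4.41 ± 2.37 TPM in DMSO to 17.8 ± 1.54 in AA, 6.08 ± 1.01 in 2i and 36.6 ± 4.62 in AA+2i (SD, n = 3). In bulk RNA, fewer cells expressing a gene and less RNA per cell cannot be told apart.

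The promoters of Phf19, Ezh2 and Suz12 are shown because they hold letters of the E2F site, a motif of promoters that are active in dividing cells, and because Phf19 is the gene whose level changed. Each window runs from 250 bases before to 50 after a RefSeq start, read 5′ to 3′ on the gene's strand from the GRCm38.p6 assembly, which is not the mm9 build of the expression tables. The Phf19 window is chr2:34913927-34914226 (minus strand), that of Ezh2 chr6:47594981-47595280 (minus strand) and that of Suz12 chr11:79992856-79993155 (plus strand). Capitals mark the match to TTTGGCGC, TTTCCCGC, TTTGCCGC or TTTCGCGC on either strand.
Phf19: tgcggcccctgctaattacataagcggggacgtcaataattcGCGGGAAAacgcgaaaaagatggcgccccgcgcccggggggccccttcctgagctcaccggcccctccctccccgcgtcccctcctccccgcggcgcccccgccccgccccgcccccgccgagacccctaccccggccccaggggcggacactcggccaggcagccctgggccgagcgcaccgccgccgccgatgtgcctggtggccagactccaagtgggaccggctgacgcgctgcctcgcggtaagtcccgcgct
Ezh2: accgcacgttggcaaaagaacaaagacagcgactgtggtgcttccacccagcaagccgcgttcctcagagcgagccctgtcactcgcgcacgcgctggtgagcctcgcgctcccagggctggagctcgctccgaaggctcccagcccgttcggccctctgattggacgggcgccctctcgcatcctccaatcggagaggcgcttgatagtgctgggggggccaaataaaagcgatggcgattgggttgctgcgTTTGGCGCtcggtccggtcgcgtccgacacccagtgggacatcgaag
Suz12: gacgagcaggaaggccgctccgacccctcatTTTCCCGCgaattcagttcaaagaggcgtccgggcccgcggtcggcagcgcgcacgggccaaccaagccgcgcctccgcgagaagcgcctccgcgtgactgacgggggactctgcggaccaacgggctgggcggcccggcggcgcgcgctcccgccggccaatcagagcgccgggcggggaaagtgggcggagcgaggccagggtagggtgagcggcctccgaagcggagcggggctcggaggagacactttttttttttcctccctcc
RefSeq windows were found for all 9 genes, 13 windows in all, and these 3 genes held an E2F match, against 2.6% of all 27025 genes with a window. The match lay at position -208 from the start in Phf19, on the opposite strand, at position 4 in Ezh2 and at position -219 in Suz12. The ETS letters CCGGAAGT were in none of the 13 windows and in 3.89% of the 32851 windows of all genes. The TCF letters CTTTGAT or CTTTGAA were in 1 PRC2 window, that of Suz12 at position -203, and in 8.65% of all windows. Phf19 and Suz12 had windows of 74.3% and 71.0% GC.

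The levels of the 9 genes, given in TPM and thus per transcript length, ran from 7.52 to 306 TPM in the means of DMSO. Aebp2 had the highest mean at 306 ± 23.2 TPM, followed by Suz12 at 218 ± 90.9 and Ezh2 at 198 ± 69.1, and each overlapped its neighbour in this order. Jarid2 (126 ± 8.98), Eed (95.4 ± 21.1) and Mtf2 (85.5 ± 33.2) formed the next tier and overlapped in the same way, whereas the ranges of Ezh2 and Jarid2 were apart. Ezh1 (27.8 ± 5.39) lay below Mtf2 and above the lowest pair with no shared range, and Phf19 (7.84 ± 1.99) and Phf1 (7.52 ± 5.74) could not be ordered. In 2i and AA+2i Phf19 was the lowest of the 9, with 3.22 ± 0.71 and 3.21 ± 0.586 TPM, and its range no longer overlapped that of Phf1. In both of these groups Ezh2 stood above Suz12, within overlapping ranges.

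**Figure D1:**
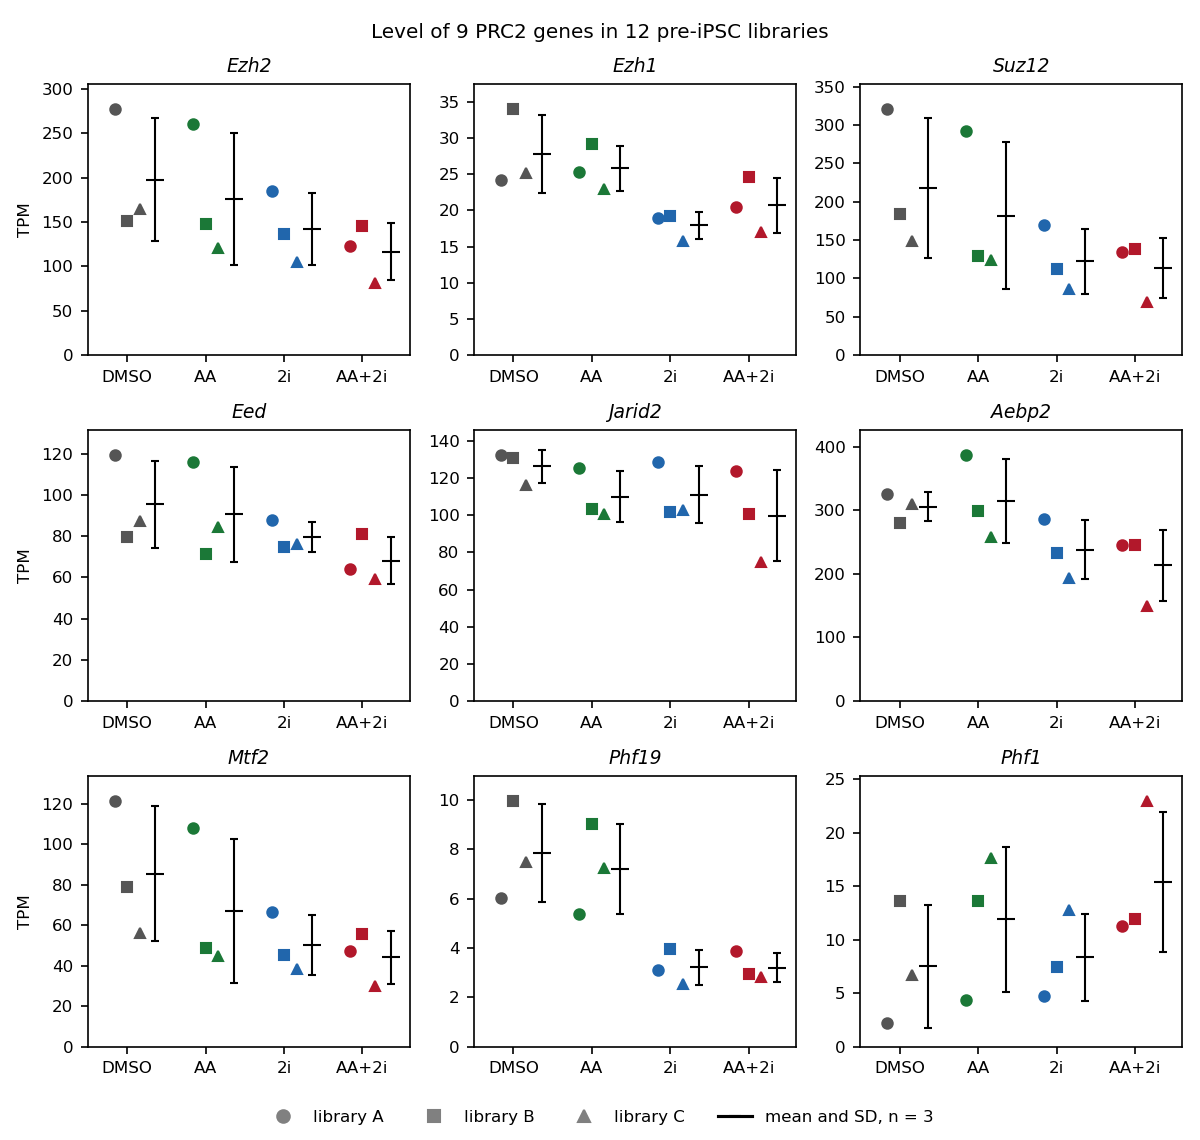
TPM of the 9 PRC2 genes (vertical axes, each from 0) in the 12 libraries, by condition. Points are libraries, with a shape for each letter, and black bars give the mean and SD of 3. The 2i and AA+2i points of Phf19 lie between 2.56 and 3.97 TPM, below all DMSO and AA points, while DMSO A and AA A are the highest points of Ezh2, Suz12, Eed and Mtf2.

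Ezh2, the main methyltransferase of dividing cells (mm9 chr6:47480273-47545340, minus strand), measured 277, 151 and 165 TPM in DMSO A, B and C, and 261, 147 and 121 in AA. It measured 184, 137 and 105 TPM in 2i and 123, 145 and 81.2 in AA+2i. The A libraries of DMSO and AA stood far above the others. AA and 2i overlapped DMSO, and the AA+2i libraries were all below those of DMSO in TPM, whereas on the log2 CPM scale they overlapped. With edgeR's quasi-likelihood test its log2 fold change against DMSO was -0.18 ± 0.34 (SE; adjusted p = 0.956) in AA, -0.33 ± 0.34 (adjusted p = 0.644) in 2i and -0.60 ± 0.34 (adjusted p = 0.275) in AA+2i.

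Ezh1, the second methyltransferase (mm9 chr11:101052429-101087777, minus strand), had 24.2, 34.0 and 25.1 TPM in DMSO and 25.2, 29.1 and 23.0 in AA. It had 18.9, 19.2 and 15.7 TPM in 2i and 20.5, 24.6 and 17.1 in AA+2i. All 3 libraries of 2i lay below all of DMSO, and those of AA+2i reached into the DMSO range. Its log2 fold change in 2i was -0.43 ± 0.17, which edgeR did not call (adjusted p = 0.217). In AA and AA+2i the values were -0.07 ± 0.17 and -0.21 ± 0.17. The ratio of Ezh2 to Ezh1 in TPM was 7.48 ± 3.58 in DMSO, 6.88 ± 3.00 in AA, 7.86 ± 1.66 in 2i and 5.56 ± 0.695 in AA+2i (SD, n = 3), and its ranges overlapped between DMSO and each treatment.

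Suz12, the scaffold that holds the core and the accessory proteins together (mm9 chr11:79806608-79847625, plus strand), had 321, 183 and 149 TPM in DMSO and 293, 129 and 123 in AA. It had 169, 112 and 86.4 TPM in 2i and 134, 138 and 69.3 in AA+2i. All AA+2i libraries were below all DMSO libraries, and the DMSO libraries themselves were spread from 149 to 321 TPM. The log2 fold change was -0.68 ± 0.40 (adjusted p = 0.454) in 2i and -0.78 ± 0.40 (adjusted p = 0.246) in AA+2i, and edgeR with a mean per condition called neither.

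Eed, which reads the methyl mark and stimulates the enzyme (mm9 chr7:97103166-97129493, minus strand), had 119, 79.8 and 87.2 TPM in DMSO, 116, 71.4 and 84.3 in AA, 87.9, 74.7 and 76.1 in 2i, and 64.1, 81.0 and 59.4 in AA+2i. Every group overlapped DMSO. Its log2 fold changes were -0.07 ± 0.23, -0.10 ± 0.23 and -0.30 ± 0.23 in AA, 2i and AA+2i, with adjusted p between 0.387 and 0.966.

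Jarid2, a Jumonji-family protein without demethylase activity that helps to recruit the complex (mm9 chr13:44824843-45017012, plus strand), had the log2 fold changes nearest to 0 of the 9 genes in 2i and AA+2i. It had 132, 131 and 116 TPM in DMSO, 126, 104 and 101 in AA, 129, 102 and 103 in 2i, and 124, 100 and 74.9 in AA+2i. Only AA+2i C stood apart, and the log2 fold changes were -0.18, -0.01 and -0.15, each with an SE of 0.18. Aebp2, a zinc finger protein that stabilises the form with Jarid2 (mm9 chr6:140570970-140626993, plus strand), had 326, 281 and 311 TPM in DMSO, 387, 299 and 258 in AA, 287, 234 and 194 in 2i, and 245, 246 and 149 in AA+2i. All AA+2i libraries lay below all DMSO libraries, with a log2 fold change of -0.55 ± 0.26 (adjusted p = 0.213). The estimated length of Aebp2 changed with the library, from 2448 to 3683 bases over its 3 RefSeq transcripts, which moves TPM but not the count tested. Those of Ezh2 and Suz12 moved far less, from 2650 to 2651 and from 4358 to 4369 bases.

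Mtf2, the most abundant Polycomb-like gene here, whose protein binds unmethylated CpG DNA (mm9 chr5:108494693-108538023, plus strand), had 121, 79.0 and 55.9 TPM in DMSO and 108, 48.6 and 44.7 in AA. It had 66.7, 45.4 and 38.2 TPM in 2i and 47.4, 55.5 and 29.9 in AA+2i. The spread within DMSO and within AA was as wide as the step between conditions, and the log2 fold change was -0.61 ± 0.37 (adjusted p = 0.467) in 2i and -0.77 ± 0.37 (adjusted p = 0.220) in AA+2i.

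Phf19, the Polycomb-like protein known for its Tudor domain that binds methylated lysine 36 of histone H3 (mm9 chr2:34749277-34769546, minus strand), had 6.04, 9.97 and 7.5 TPM in DMSO and 5.38, 9.01 and 7.23 in AA. It had 3.12, 3.97 and 2.56 TPM in 2i and 3.88, 2.93 and 2.81 in AA+2i. The 6 libraries with 2i, alone or with AA, were all below the 6 without it. How many of all tested genes show this pattern was not counted. The log2 fold change was -1.08 ± 0.27 in 2i (47.2% of DMSO, edgeR adjusted p = 0.0465) and -1.07 ± 0.27 in AA+2i (47.5% of DMSO, adjusted p = 0.0332), against -0.07 ± 0.26 in AA (adjusted p = 0.971). Both calls lie near the threshold. With only the libraries of the 2 groups compared in the model the adjusted p was 0.15 in 2i and 0.0860 in AA+2i. With 1 library left out, the adjusted p ran from 0.0272 to 0.191 in 2i, where only the omission of AA A kept the call, and from 0.0179 to 0.117 in AA+2i, where the omission of DMSO B, DMSO C or any AA+2i library ended it. The log2 fold change ran from -1.27 to -0.97 and from -1.20 to -0.97 over these omissions. Between AA+2i and AA the change was -1.0 ± 0.27 (adjusted p = 0.0515), just outside the threshold, and between AA+2i and 2i it was 0.01 ± 0.27. Phf19 is a gene of few reads in these libraries, with 94 to 948 expected counts.

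Phf1, the third Polycomb-like gene (mm9 chr17:27070072-27074835, plus strand), was the only one of the 9 with higher values in every treatment. It had 2.22, 13.6 and 6.74 TPM in DMSO, 4.39, 13.6 and 17.6 in AA, 4.76, 7.45 and 12.8 in 2i, and 11.3, 11.9 and 23.0 in AA+2i. DMSO A was the lowest and AA+2i C the highest of the 12. Its log2 fold change in AA+2i was 1.34 ± 0.68 (adjusted p = 0.238), the largest in size and the least precise of the 9. The ratio of Mtf2 to Phf1 in TPM ran from 5.80 to 54.7 in DMSO and from 1.3 to 4.66 in AA+2i.

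**Figure D2:**
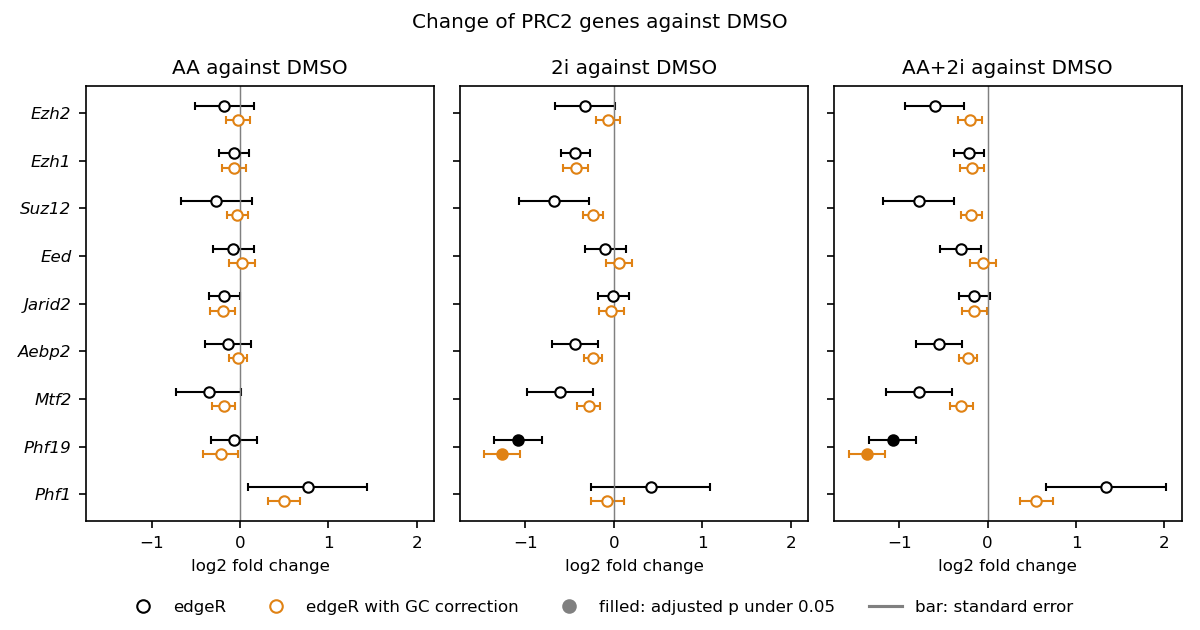
Log2 fold change against DMSO (horizontal axis) of each PRC2 gene in AA, 2i and AA+2i, from edgeR as it stands (black) and with a correction for GC content (orange). Bars are standard errors, and filled points have an adjusted p under 0.05. Only Phf19 is filled, in 2i and AA+2i, at -1.08 and -1.07 and at -1.27 and -1.36 with the correction.

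Counted together, 0 of the 9 genes were called in AA against DMSO, where 1.34% of the tested genes were called in either direction. The same 0 came from DESeq2, from limma on either TPM scale and at an unadjusted p under 0.05, which 9.43% of the tested genes reached. In 2i 1 of 9 was called, lower, where 2.83% of the tested genes were called lower, and in AA+2i 1 of 9 was called, lower, where 4.41% were. Both counts are Phf19 alone. The 3 comparisons share the DMSO libraries, and in each 8 of the 9 log2 fold changes were negative, with Phf1 the exception. Their median was -0.14 in AA, -0.43 in 2i and -0.55 in AA+2i, against -0.01, -0.02 and -0.02 over all tested genes. Without DMSO A the 9 genes had 3 negative values in AA, 6 in 2i and 8 in AA+2i, and medians of 0.086, -0.202 and -0.265.

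On the log2 CPM scale 2 of the 9 genes (Ezh1 and Phf19) had all 2i libraries below all DMSO libraries, as had 10.7% of the tested genes. In AA+2i 3 genes (Suz12, Phf19 and Aebp2) lay wholly below DMSO, where 15.6% of tested genes did, and 1 (Phf1) wholly above, where 15.4% did. AA did not separate from DMSO for any of the 9, and 4.84% of the tested genes lay wholly below and 5.34% wholly above. AA+2i was also compared with each single treatment. Against 2i, Ezh1 lay wholly above, where 9.64% of tested genes did, and 0 of 9 genes were called by edgeR, DESeq2 or limma or had an unadjusted p under 0.05, where edgeR called 0.91% of the tested genes and 9.53% had such a p. Against AA, Phf19 lay wholly below, where 12.4% of tested genes did. There 0 of 9 were called, where 6.1% of tested genes were, and 1, Phf19, had an unadjusted p under 0.05, as had 17% of tested genes, and was called by DESeq2 and limma. The interaction, which asks whether AA+2i differs from the sum of both single effects, was called for 0 of 9 genes by edgeR, DESeq2 and limma and at an unadjusted p under 0.05, where edgeR called 0.0149% of the tested genes and 2.31% had such a p. Its values ran from -0.13 ± 0.33 for Eed to 0.29 ± 0.24 for Ezh1.

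The base composition of the transcripts moved with these values. The 9 transcripts ranged from 40.5% GC in Suz12, over 43.6% in Mtf2, 45.2% in Ezh2, 46.0% in Aebp2, 47.8% in Eed, 50.4% in Ezh1, 51.0% in Jarid2 and 53.9% in Phf19, to 60.0% in Phf1, and the median of the tested genes was 51.0%. In each library a curve against GC content was fitted over the tested genes of known GC content. It followed each gene's deviation in log2 CPM from its mean over the 12 libraries. At the GC content of Suz12 the curve was highest in DMSO A (0.88) and lowest in AA+2i C (-0.58). The fit takes no account of condition, so a treatment effect that follows GC content would be taken out with it. At the GC content of Phf1 the same libraries were the lowest (-1.64) and the highest (1.12). DMSO A and AA+2i C thus stand at opposite ends, and they belong to the groups compared.

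Taking the curve out narrowed the spread between replicates. The pooled SD within conditions went from 0.53 to 0.102 log2 units for Suz12, from 0.488 to 0.145 for Mtf2, from 0.44 to 0.152 for Ezh2, from 0.312 to 0.048 for Aebp2 and from 0.978 to 0.206 for Phf1. For Jarid2 and Ezh1, which lie near the median GC content, it went from 0.163 to 0.156 and from 0.136 to 0.153. The AA+2i values of the AT-rich genes became smaller, at -0.19 ± 0.12 for Suz12, -0.30 ± 0.13 for Mtf2, -0.20 ± 0.13 for Ezh2 and -0.22 ± 0.10 for Aebp2, and that of Phf1 became 0.55 ± 0.18 (adjusted p = 0.0565). Phf19 went the other way, to -1.27 ± 0.20 in 2i (adjusted p = 0.00192), -1.36 ± 0.20 in AA+2i (adjusted p = 0.000803) and -1.14 ± 0.20 between AA+2i and AA (adjusted p = 0.00298, where 8.16% of tested genes were called lower). Ezh1 kept its size in 2i, at -0.43 ± 0.14 (adjusted p = 0.0675). After the correction edgeR still called 1 of 9 genes lower in 2i and in AA+2i, where 7.23% and 10.5% of the tested genes were called lower. At an unadjusted p under 0.05 in edgeR, 4 of the 9 then passed in 2i and 4 in AA+2i, where 3461 and 4520 of the 13400 tested genes did. Before the correction it was 2 and 1, where 16.1% and 24.8% of tested genes passed. The median of the 9 in AA+2i with the correction was -0.19. The genes whose groups did not overlap also changed with the correction. In 2i 4 genes (Ezh1, Suz12, Phf19 and Aebp2) then lay wholly below DMSO, where 15.0% of tested genes did. In AA+2i 3 genes (Mtf2, Phf19 and Aebp2) lay wholly below, where 17.3% did, and 0 wholly above, where 17.1% did, so that Suz12 and Phf1 were no longer apart from DMSO. In AA Phf1 lay wholly above DMSO, where 8.73% of tested genes did. Against 2i, Ezh1 and Phf1 lay wholly above in AA+2i, where 13.8% did, and against AA, Phf19 and Aebp2 lay wholly below, where 17.7% did.

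**Figure D3:**
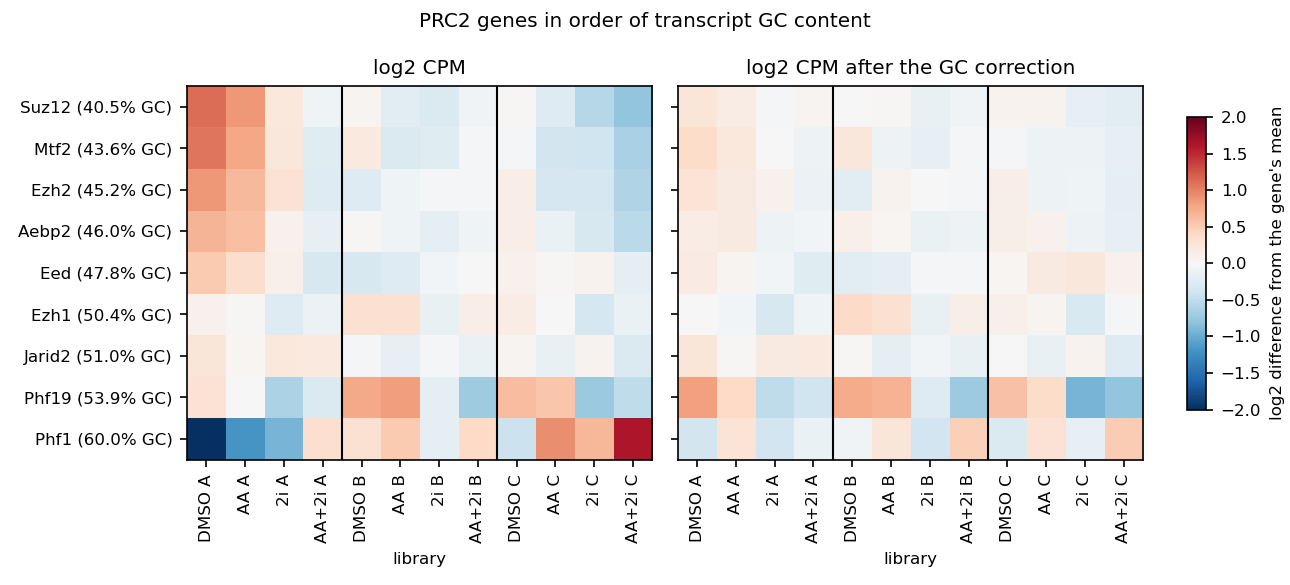
Log2 difference of each PRC2 gene from its own mean over the 12 libraries, before (left) and after (right) the GC correction. Rows are ordered by transcript GC content from 40.5% to 60.0%, and columns group the libraries by letter. Before the correction DMSO A and AA A are red for the AT-rich genes and blue for Phf1, and AA+2i C shows the reverse, while the red and blue of Phf19 follow the absence and presence of 2i in both panels.

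Both methyltransferase genes were compared with all tested genes for the closest patterns over the 12 libraries. These are descriptions, since the libraries share conditions, depth and base composition. The log2 CPM of Ezh2 was most like that of Cab39l (r = 0.994), Bhlhb9 (0.993) and Copb1 and Thumpd3 (0.992 each), whose GC content was between 42.5% and 46.9%. Among its partners r was 0.947 with Aebp2, 0.942 with Suz12, 0.93 with Mtf2 and -0.967 with Phf1. After the GC correction the closest were Hdgf (0.964), Prps1 (0.961), Gabarapl1 and Ppp2r5d (0.959 each) and Rbbp4 (0.957), and r with Suz12 was 0.626 and with Phf1 -0.38. Ezh1 was most like Catsperg1 (0.892), Tmem8b (0.889), Letm2 (0.884), Gm13298 and D230025D16Rik (0.881 each), and after the correction like Rad54b (0.914), Ceacam1 and Ehbp1 (0.913 each), Catsperg1 (0.91) and Birc2 (0.909). Its r with Ezh2 was 0.136 before and -0.151 after the correction, and with Phf19 0.782 and 0.658.

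The other proteins that join PRC2 showed no call against DMSO in the edgeR model with a mean per condition. Of 6 genes on the list 5 were tested, and Ezhip, listed at 0 in 11 of 12 libraries, was not. At an unadjusted p under 0.05 they gave 0, 1 and 3 of 5 genes in AA, 2i and AA+2i, where 9.43%, 16.1% and 24.8% of all tested genes passed, limma called none, and DESeq2 called 1, Lcor, in AA+2i. Rbbp4, the histone chaperone of the core, had 259 ± 105 TPM in DMSO and 160 ± 45.0 in AA+2i, with a log2 fold change of -0.55 ± 0.36, and Rbbp7 had 493 ± 187 and 361 ± 68.9 TPM, with -0.29 ± 0.32. The 2 demethylases that remove the mark were not called by DESeq2, limma or the edgeR model with a mean per condition. In that edgeR model neither had an unadjusted p under 0.05. With the GC correction 1 of the 2 had such a p in 2i, and 1 in AA+2i, where 3461 and 4520 of the 13400 tested genes did. Kdm6a measured 47.0 ± 16 TPM in DMSO and 24.9 ± 7.82 in AA+2i, and Kdm6b 13.4 ± 9.50 and 18.0 ± 5.39.

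Of PRC1, the complex that ubiquitinates histone H2A and can bind the PRC2 mark, all 22 listed genes were tested. None was called in AA by edgeR, DESeq2 or limma, and 1 had an unadjusted p under 0.05, against 9.43% of all tested genes. Phc1, a Polyhomeotic subunit, was the 1 gene of the 22 called in 2i and in AA+2i by edgeR with a mean per condition and no GC correction. It was lower in both, where 2.83% and 4.41% of all tested genes were called lower. It had 95.4, 186 and 118 TPM in DMSO, 109, 149 and 154 in AA, 48.9, 52.3 and 49.4 in 2i, and 65.6, 54.3 and 50.6 in AA+2i. Like Phf19 it was lower in all 6 libraries with 2i than in the 6 without, a pattern not counted over all tested genes. Its edgeR log2 fold changes were -1.19 ± 0.23 in 2i (adjusted p = 0.0155) and -0.99 ± 0.23 in AA+2i (adjusted p = 0.0234). The list's median was 0.03, 0.02 and 0.09 in AA, 2i and AA+2i, close to that of all genes. Before the GC correction 3 and 6 of the 22 had an unadjusted p under 0.05 in 2i and AA+2i, where 16.1% and 24.8% of tested genes did. With the correction edgeR called 2 lower and 1 higher in 2i, and 3 lower and 1 higher in AA+2i. Of all tested genes it then called 969 lower and 574 higher in 2i, and 1405 lower and 1164 higher in AA+2i. Among the 4 genes of PR-DUB, which removes ubiquitin from H2A, Asxl3 rose from 0.217 ± 0.025 TPM in DMSO to 0.593 ± 0.216 in 2i (adjusted p = 0.0290) and 0.707 ± 0.233 in AA+2i (adjusted p = 0.00882). Its level stayed under 1 TPM, and the 2i call was lost with limma and without DMSO A. Of the 13400 tested genes, 213 were called higher in 2i and 526 in AA+2i.

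Of 23 known PRC2 target genes reported here, 11 had enough counts to be tested. The list holds developmental genes and the cell cycle inhibitors Cdkn2a and Cdkn2b. Pax7, a muscle and neural crest transcription factor, had 1.19 ± 0.146 TPM in DMSO, 0.39 ± 0.108 in AA, 0.083 ± 0.023 in 2i and 0.03 ± 0.017 in AA+2i, and was called lower in each treatment (adjusted p = 0.0369, 0.000575 and 9.70e-05). Eomes, a mesendoderm and trophoblast factor, fell from 2.37 ± 0.269 TPM to 1.03 ± 0.055 in 2i and 0.917 ± 0.055 in AA+2i (adjusted p = 0.0293 and 0.0106). Of the 13400 tested genes, 63 were called lower in AA, 379 in 2i and 591 in AA+2i. The list did not move in 1 direction, and 4, 4 and 5 of the 11 had positive log2 fold changes in AA, 2i and AA+2i. In edgeR 2, 3 and 5 of the 11 had an unadjusted p under 0.05, where 9.43%, 16.1% and 24.8% of tested genes did. With the GC correction 3 were called lower and 1 higher in AA+2i, where 1405 and 1164 of all tested genes were. Between AA+2i and AA, 2 of the 11 tested genes were called lower and 1, Neurog1, higher (edgeR adjusted p = 0.0477), on levels of at most 1.22 TPM. Of all 13400 tested genes, 441 were called lower there and 376 higher. No median is given for this list, because it is reported in part. Without DMSO A the Pax7 call in AA and the Eomes call in 2i were lost.

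Proliferation genes were listed because Ezh2 and Suz12 are known to be transcribed mainly in dividing cells. The 18 genes summed to between 3931 and 5171 TPM in DMSO, 3793 and 5117 in AA, 3020 and 3932 in 2i, and 2445 and 3294 in AA+2i. None was called against DMSO by edgeR. At an unadjusted p under 0.05 there were 0 in AA, 0 in 2i and 6 of 18 in AA+2i, against 9.43%, 16.1% and 24.8% of all tested genes, and in AA+2i DESeq2 called 1 (Bub1) and limma 1 (Ccne1). Their median log2 fold change was 0.01, -0.18 and -0.40. After the GC correction 4 of the 18 were called lower in AA+2i, where 10.5% of the tested genes were. The part of these levels in the values of the PRC2 genes was not tested.

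**Figure D4:**
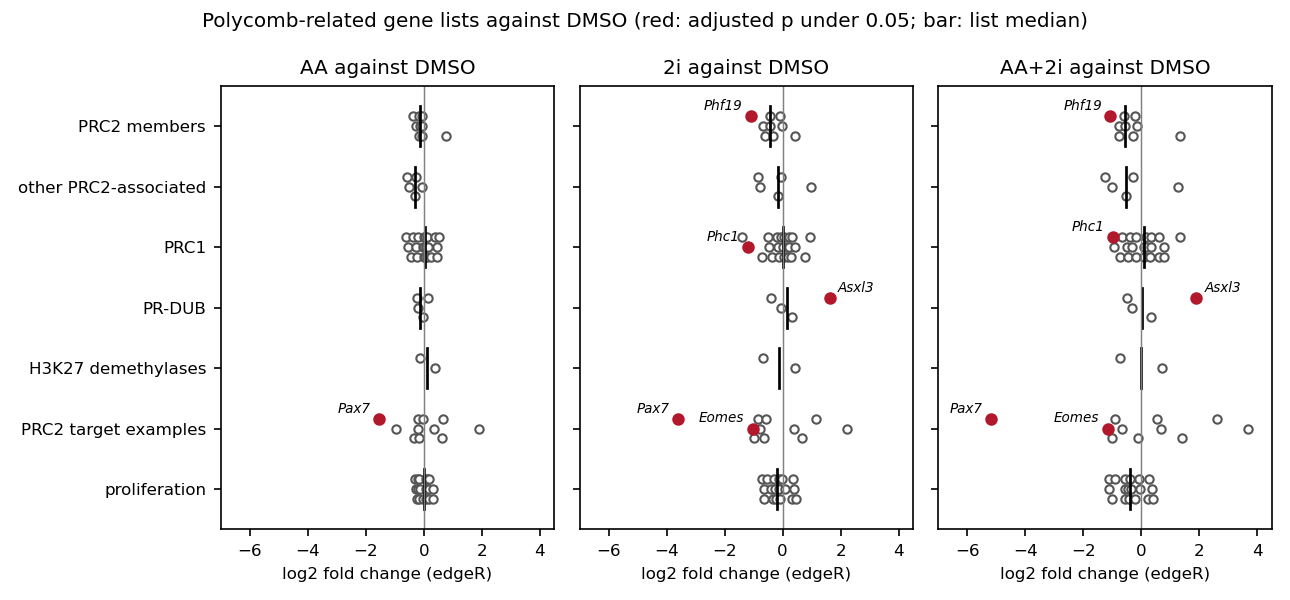
Log2 fold change against DMSO from edgeR (horizontal axis) of the genes of 7 Polycomb-related or proliferation lists (vertical axis), in AA, 2i and AA+2i. Each point is a gene, red points have an adjusted p under 0.05 and are named, and black bars are list medians, left out for the target genes, which are shown in part. Phf19 and Phc1 are red on the lower side with 2i and AA+2i, and Pax7 in all 3 panels.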

How the data were processed

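TruSeq libraries of 12 pre-iPSC cultures were sequenced by the authors, who trimmed and quality-filtered the reads, aligned them with Bowtie2 to RefSeq transcripts of mm9 and ran RSEM 1.2.4 without strand. The deposited expected counts are not normalized. TPM as deposited sum to a fixed total per library, and the deposited FPKM served only to recompute 1 malformed TPM cell of a gene not named here. Reads from genes overlapping on the opposite strand cannot be told apart, and 7.5% of the exon bases of Mtf2 overlap Tmed5.

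Expected counts were rounded and tested in edgeR 4.0.16 (R 4.3.3) with RLE factors, a quasi-likelihood F test and 1 model with a mean per condition over 12 libraries, for genes reaching 10 counts in 3 libraries or more. A Benjamini-Hochberg adjusted p under 0.05 over all 13400 tested genes is a call. A standard error is the log2 fold change divided by the root of F. Log2 CPM used a prior count of 2. The GC correction fitted a loess curve (span 0.4) per library, with GC content known for 99.25% of the tested genes, and entered it as an offset. Alternatives were TMM factors, DESeq2 1.42.0, limma 3.58.1 on log2(TPM + 1) and log2(TPM + 0.1), an unfiltered table, a filter of 10 counts applied to each library, only the groups compared, a replicate block and leaving out libraries. The test was checked on simulated counts. Positions are from GENCODE M1.

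All 9 members are named. From the other lists, up to 4 called genes of smallest p were named, and Rbbp4, Rbbp7, Kdm6a and Kdm6b always. Lcor, Bub1 and Ccne1 were named after their values were seen. The members and lists were chosen with earlier results of these data known. The deposited per-library lengths, of unit other, gave the Aebp2 length. From the list of PRC2 target genes 1 tested gene, and from the patterns most like Ezh2 another, are not reported here.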

Additional observations from a re-analysis of the deposited data

How the results depend on the processing

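Whether Phf19 was called depended on the settings, and its direction did not. Against DMSO in 2i, 1 member was called, but 0 with TMM factors (adjusted p of Phf19 0.0540), without a filter (0.0644), with 10 counts required in each library (0.0599) or with only the groups compared (0.15). In AA+2i it was 1, and 0 with only the groups compared. Between AA+2i and AA it was 0, and 1 with DESeq2, limma on either TPM scale and the GC correction. Leaving out a library or a letter gave 0 to 1 in each of these comparisons.

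The letters A, B and C are not stated to pair the libraries. Of 18 same-letter pairs of libraries of different groups, 15 had deviations correlating above 0.1. The r ran from -0.588 (DMSO B with AA+2i B) to 0.894 (DMSO A with AA A). Most libraries of a letter thus deviated alike, and what they share was not tested. The main model leaves the letter out because no pairing is stated, so these shared deviations stay in its spread. With the replicate block, 2 members were called in 2i (Phf19, and Ezh1 at an adjusted p of 0.0411), 5 in AA+2i (Phf19, Suz12, Mtf2 and Aebp2 lower, the last 3 at 0.0323, 0.0388 and 0.0387, and Phf1 higher at 0.0254) and 1 between AA+2i and AA. Of all 13400 tested genes the block called 1096 lower in 2i, 2178 lower and 2051 higher in AA+2i, and 1092 lower between AA+2i and AA. Of the 5 tested genes of other proteins that join PRC2, the block called 1 lower in 2i, and 2 lower and 1 higher in AA+2i. Of the 22 PRC1 genes it called 2 lower in 2i, and 5 lower and 2 higher in AA+2i. Of the 2 demethylases it called 1 lower in AA+2i. With the GC correction and the block, the member counts were 2, 3 (Phf19 and Mtf2 lower, Phf1 higher) and 1, and 1 between AA+2i and 2i (Phf1 higher). Of all tested genes 1909 were then lower in 2i, 2564 lower and 2279 higher in AA+2i, and 2011 lower between AA+2i and AA. Between AA+2i and 2i, 853 were higher.

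In 20 cases a value changed sign, and none of these values was called. With the GC correction, and in brackets also with the block, Eed became 0.023 (0.019) in AA and 0.057 (0.056) in 2i, and Phf1 -0.072 (-0.064) in 2i. Between AA+2i and 2i, Suz12 became 0.051 (0.049), Phf19 -0.096 (-0.083) and Aebp2 0.011 (0.01). With limma at a pseudocount of 1 and of 0.1, Aebp2 became 0.024 in AA at both, and -0.198 and -0.199 in the interaction, and Jarid2 -0.162 and -0.164 between AA+2i and AA. With only the groups compared, Jarid2 in 2i became 0.004 and Phf19 between AA+2i and 2i -0.004. The cause was not tested.

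Leaving out libraries also turned signs of uncalled values. In AA the log2 fold change ran from -0.17 to 0.005 for Ezh1, -0.522 to 0.195 for Ezh2, -0.736 to 0.184 for Suz12, -0.256 to 0.164 for Eed, -0.818 to 0.052 for Mtf2, -0.268 to 0.129 for Phf19 and -0.412 to 0.086 for Aebp2. In 2i it ran from -0.547 to 0.046 for Ezh2, -0.274 to 0.142 for Eed, -0.078 to 0.07 for Jarid2 and -0.097 to 1.113 for Phf1, and in AA+2i from -0.572 to 0.014 for Eed. Between AA+2i and 2i the range was -0.267 to 0.145 for Suz12, -0.371 to 0.039 for Mtf2, -0.166 to 0.295 for Phf19 and -0.228 to 0.007 for Aebp2. Between AA+2i and AA it was -0.451 to 0.009 for Eed, -0.117 to 0.132 for Jarid2 and -0.741 to 0.044 for Mtf2. The interaction ran from -0.469 to 0.25 for Ezh2, -0.286 to 0.636 for Suz12, -0.372 to 0.046 for Eed, -0.116 to 0.134 for Jarid2, -0.22 to 0.652 for Mtf2, -0.184 to 0.457 for Phf19, -0.449 to 0.674 for Phf1 and -0.205 to 0.295 for Aebp2.

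Over all tested genes, the number called in AA, 2i and AA+2i against DMSO was 179, 592 and 1117, and ran over the planned settings from 0, 187 and 601 (only the groups compared) to 1459, 3303 and 4843 (GC correction and block). Without the B letter, which holds the deepest libraries, it was 0, 1 and 18. On the TPM scale (pseudocount 1) limma put the median of all genes at -0.13 in 2i and -0.15 in AA+2i, which is -0.10 and -0.13 from the medians of edgeR.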
